A study of Homo sapiens with 8 samples.

Results

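The DNA methylation writers and erasers described here were 9 genes, taken by name from the 62086 genes of the count table. The writers were UHRF1, DNMT1, DNMT3A, DNMT3B and DNMT3L, and the erasers were TET1, TET2, TET3 and TDG. Their transcripts were followed in human embryonic stem cells (hESCs) of the line BG01, grown without feeder cells in mTeSR medium. The cells received 5 µg/mL of anti-M8nAb, a mouse antibody that neutralizes the secreted glycoprotein MFGE-8, or 5 µg/mL of normal mouse IgG as isotype control, for 12 or 24 h. Each of the 4 groups (IgG 12 h, anti-M8nAb 12 h, IgG 24 h and anti-M8nAb 24 h) held 2 libraries, 8 in all, labelled as biological replicates. Whether those came from separate cultures is not in the labels, and the p-values measure only the spread between libraries. The comparison asks how the transcripts changed when MFGE-8 was blocked. All cells were of 1 line, and no untreated group was used here.

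DNA methylation in mammals is the addition of a methyl group to cytosine, mostly where a guanine follows. DNMT3A and DNMT3B place new marks, and DNMT3L is a catalytically inactive partner that stimulates them. DNMT1 copies the marks onto the new strand after replication, and it is brought there by UHRF1, a ubiquitin ligase that recognises DNA methylated on the old strand alone. TET1, TET2 and TET3 oxidise the methyl group, and the glycosylase TDG cuts out the oxidised bases so that repair can put back plain cytosine. Human pluripotent stem cells are known for high DNMT3B and for TET1 as their main TET gene.

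In these hESCs UHRF1 was the member that moved furthest with anti-M8nAb. Its transcripts fell to 40.2% of the IgG level at 12 h and to 22.5% at 24 h. DNMT3A fell to 73.3% and 70.4%, and DNMT1 to 90.1% and 82.7%. DNMT3B, the most abundant of the 9 per length, did not pass the test at either time. TET1 was lower at both times and TET3 was higher at 12 h, though each of these 3 results did not pass in some alternative fits. DNMT3L was close to absent in every library.

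The start sites of UHRF1, DNMT1 and DNMT3A are shown because these writers were lower with anti-M8nAb at both times. Each run covers 250 bases before and 50 after a transcription start in RefSeq (GRCh38.p14), written 5′ to 3′ along the gene. Capitals mark matches to TTTCCCGC, TTTCGCGC, TTTGCCGC or TTTGGCGC on either strand, words of the binding site of the E2F cell cycle factors. The UHRF1 window is chr19:4909251-4909550 on the plus strand, the DNMT1 window is chr19:10194904-10195203 on the minus strand, and the DNMT3A window is chr2:25341876-25342175 on the minus strand.
UHRF1: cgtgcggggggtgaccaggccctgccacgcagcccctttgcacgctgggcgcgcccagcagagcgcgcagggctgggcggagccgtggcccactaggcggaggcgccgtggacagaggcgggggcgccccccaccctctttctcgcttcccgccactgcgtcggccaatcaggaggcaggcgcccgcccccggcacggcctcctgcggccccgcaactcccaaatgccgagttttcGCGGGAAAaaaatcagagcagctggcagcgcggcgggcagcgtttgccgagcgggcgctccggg
DNMT1: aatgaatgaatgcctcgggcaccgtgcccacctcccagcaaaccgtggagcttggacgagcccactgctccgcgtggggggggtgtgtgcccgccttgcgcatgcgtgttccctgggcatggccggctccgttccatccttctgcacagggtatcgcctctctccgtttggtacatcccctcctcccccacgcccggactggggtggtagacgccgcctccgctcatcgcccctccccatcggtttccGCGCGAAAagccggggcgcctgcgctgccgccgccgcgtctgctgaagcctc
DNMT3A: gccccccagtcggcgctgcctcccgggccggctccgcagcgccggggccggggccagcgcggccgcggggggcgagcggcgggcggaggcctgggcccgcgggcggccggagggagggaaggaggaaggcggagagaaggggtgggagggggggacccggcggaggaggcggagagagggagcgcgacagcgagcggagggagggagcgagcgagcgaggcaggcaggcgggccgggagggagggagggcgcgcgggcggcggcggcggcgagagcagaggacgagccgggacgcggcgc
The UHRF1 window held 1 match, whose first base lay 14 bases before the start, and the DNMT1 window held 1 match beginning 2 bases before the start. The DNMT3A window held none. RefSeq windows were found for 8 of the 9 members, 19 windows in all, and 3 of these windows held a match, all of them at UHRF1 or DNMT1. The third was the UHRF1 window chr19:4909894-4910193, with a match beginning 160 bases before its start. The only DNMT3B window, chr20:32779602-32779901, lies inside the gene, which is annotated from 32762385. Its first start was therefore not searched. Among 35116 windows of all genes 3.31% held a match. Those windows were not matched to the members for CG dinucleotides, which every word searched contains. Whether the members hold more matches than windows of like CG content was not tested. A match is a run of letters, and factor binding was not measured here. The windows shown are 1 of 3 for UHRF1, 1 of 6 for DNMT3A and the only one for DNMT1. CG dinucleotides numbered 36 to 46 over the UHRF1 windows (36 in the one shown), 18 to 46 over the DNMT3A windows (46 in the one shown) and 30 in the DNMT1 window, against a median of 14 over all windows.

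The counts over genes ran from 21010400 to 21792716 per library. Values are given in CPM, the count divided by library size, after TMM scaling, which sets the libraries to a common level. Each comparison used edgeR's two-sided quasi-likelihood test over 20165 genes with Benjamini-Hochberg adjustment, and a call is an adjusted p under 0.05. Where groups are said not to overlap, this describes 2 libraries against 2 and is no test. Groups of that size can lie apart with no effect, and the share of all genes that did was not counted. Of the 9 members 8 passed the filter on low counts, all but DNMT3L. All 8 hESC markers were detected, and their summed level was 5773 to 6528 CPM with IgG and 6341 to 7474 CPM with anti-M8nAb. At 12 h 7 of the 8 were higher and 0 lower, where 15.8% and 16.4% of all genes were. At 24 h 3 were higher (21.2% of all genes), among them POU5F1 (log2 fold change 0.25, adjusted p = 2.65e-06). The 2 lower at 24 h (21.3% of all genes) were NANOG (-0.25, adjusted p = 0.00108) and SOX2 (-0.26, adjusted p = 0.000128). Markers of other lineages also moved. OTX2 had 0.71 at 12 h and -0.53 at 24 h (adjusted p = 1.1e-10 and 1.78e-07), CXCR4 had 0.98 and 1.97 (adjusted p = 0.00391 and 3.8e-08), and FOXA2 had 0.29 and -2.03 (adjusted p = 0.489 and 5.42e-06). GATA3 was at 0.0461 to 0.308 CPM with IgG and 1.06 to 1.90 CPM with anti-M8nAb. KRT7, the other trophoblast marker tested, went the other way, with -0.39 at 12 h (adjusted p = 0.00809). Its value of -0.27 at 24 h did not pass (adjusted p = 0.052). All 4 neuroectoderm markers, OTX2 among them, were called higher at 12 h, and at 24 h 1 was higher and 1 lower. Of the 4 mesoderm markers tested, 1 was higher at 12 h and 1 lower at 24 h. The summed levels of the endoderm, mesoderm and trophoblast lists were at most 8.54, 4.62 and 20.9 CPM in any library, and that of the neuroectoderm list, mostly NES, was 229.6 to 242 CPM with IgG and 273 to 307 CPM with anti-M8nAb. CGA was at 0 in every library and SOX17 at 3 counts or fewer. Among 7 fibroblast markers DCN reached 12 counts and LUM 6 in any library, and the summed level of the list was 479 to 481 CPM with IgG and 541 to 575 CPM with anti-M8nAb at 12 h, and 546 to 561 and 677 to 703 CPM at 24 h, most of it THY1, which hESCs also express. The part of these markers in the results was not tested. Pseudogene transcripts stood at 5559.8 CPM in anti-M8nAb 12 h replicate 2 and at 2662 to 3823 CPM in the other 7 libraries, so the values of the members at 12 h are also given without that library. In bulk RNA, fewer cells that express a gene and less of its RNA per cell cannot be told apart.

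UHRF1 (ENSG00000276043.5) lies on chromosome 19 of GRCh38 from 4903080 to 4962154. With IgG its level was 60.2 and 55.9 CPM in the libraries of 12 h and 42.6 and 49.9 CPM in those of 24 h. With anti-M8nAb it was 23.2 and 23.4 CPM at 12 h and 11.0 and 9.79 CPM at 24 h. The 4 groups did not overlap, and both anti-M8nAb groups lay below both IgG groups. The log2 fold change was -1.32 at 12 h (SE 0.09, adjusted p = 2.14e-15 from edgeR) and -2.15 at 24 h (SE 0.11, adjusted p = 1.54e-21). Ordered by p, UHRF1 stood at place 71 of the 20165 genes at 12 h and at place 46 at 24 h. It was the only member past a 2-fold change, where 2.97% of all genes were called lower and past 2-fold at 12 h and 4.84% at 24 h.

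The fall of UHRF1 had deepened by 24 h. Tested directly, its responses at the 2 times differed by -0.84 on the log2 scale (SE 0.14, adjusted p = 3.59e-05). The control level, whose change this difference already subtracts, moved with time as well. In IgG libraries UHRF1 went down from 12 h to 24 h, and the log2 fold change was -0.33 (SE 0.09, adjusted p = 0.00846 from edgeR). This comparison shares its IgG libraries with the comparisons of treatment. The drift was lost in 7 of 16 alternatives, among them edgeR without a filter on low counts (adjusted p = 0.051) and limma on FPKM (adjusted p from 0.124 to 0.264). Without IgG 12 h replicate 1, without IgG 12 h replicate 2 or without IgG 24 h replicate 1 that drift in control cells no longer passed (log2 fold change -0.27, -0.37 and -0.20, adjusted p = 0.179, 0.0519 and 0.206).

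**Figure D1:**
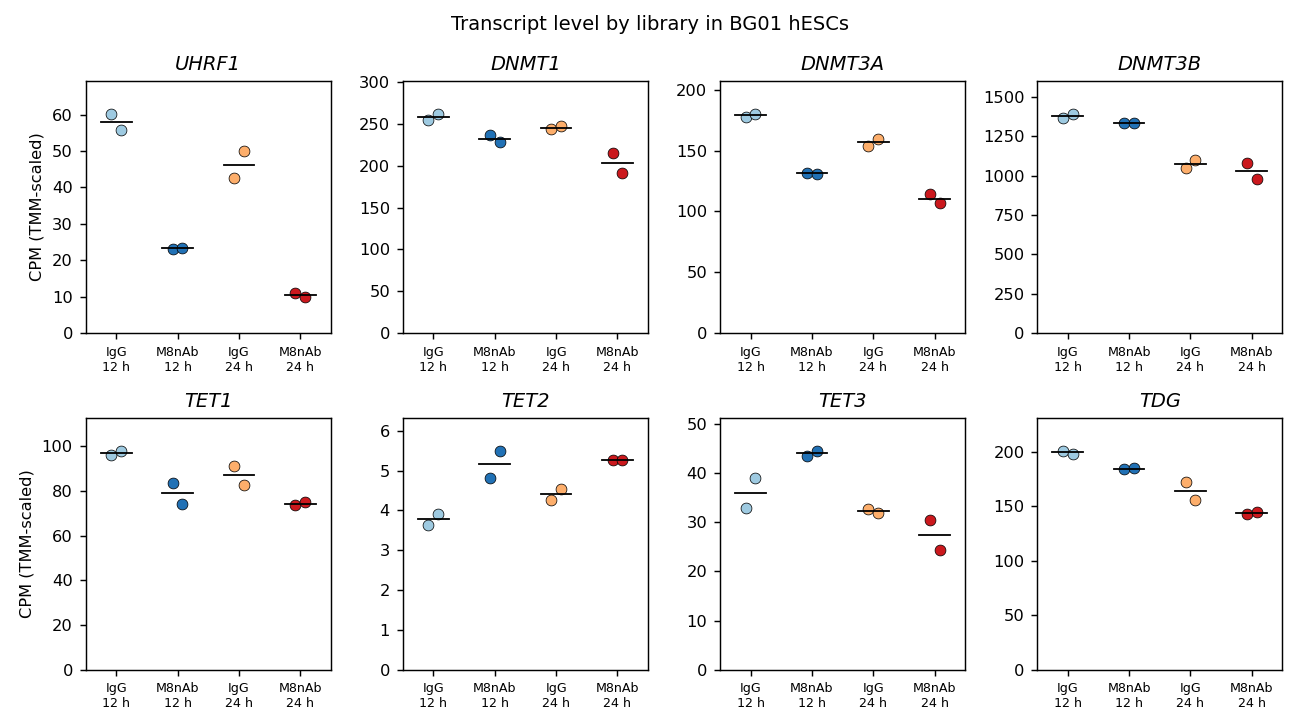
TMM-scaled CPM (y axis, linear from 0) of 8 members in each library, with IgG in light blue (12 h) and light orange (24 h), anti-M8nAb (M8nAb) in blue (12 h) and red (24 h), and black bars at the mean of the 2 libraries. UHRF1 is at 55.9 to 60.2 and 42.6 to 49.9 CPM with IgG and at 23.2 to 23.4 and 9.79 to 11.0 CPM with anti-M8nAb.

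DNMT1 (ENSG00000130816.17), the maintenance methyltransferase, lies on chromosome 19 from 10133342 to 10231286. It was at 255 and 262 CPM (IgG) and at 237 and 228 CPM (anti-M8nAb) in the 12 h libraries, and at 244 and 247 CPM against 215 and 191 CPM at 24 h. Both anti-M8nAb libraries were below both IgG libraries at each time. In log2 the change was -0.15 at 12 h (SE 0.05, adjusted p = 0.0298) and -0.27 at 24 h (SE 0.05, adjusted p = 6.63e-05). The call at 12 h was lost without anti-M8nAb 12 h replicate 2 (log2 fold change -0.12, adjusted p = 0.203), without IgG 12 h replicate 1 (-0.17, adjusted p = 0.107) or its partner, IgG 12 h replicate 2 (-0.12, adjusted p = 0.26). The 12 h call was also lost in edgeR without a filter on low counts (adjusted p = 0.0936). With limma on FPKM it did not pass either (adjusted p from 0.0531 to 0.114). In all, 7 of 17 alternatives lost it. The call at 24 h held without any one library.

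UHRF1 also fell relative to the enzyme it recruits. On the authors' FPKM scale, which divides by gene length, UHRF1 stood at 70.6 and 63.8% of the DNMT1 level in the IgG libraries of 12 h and at 52.2 and 60.4% in those of 24 h. With anti-M8nAb the share was 29.2 and 30.7% at 12 h and 15.3% in both libraries at 24 h. These groups did not overlap. The height of the share depends on the gene lengths, close to 15379 bases for DNMT1 and 5145 for UHRF1. In CPM, which uses no lengths, UHRF1 was at 60.2 and DNMT1 at 255 in IgG 12 h replicate 1. The lengths are the same in every library, so they do not alter how the share changed between groups.

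DNMT3A (ENSG00000119772.19), a de novo methyltransferase, lies on chromosome 2 from 25227855 to 25342590. Its level was 178 and 180.3 CPM with IgG against 132 and 131 CPM with anti-M8nAb at 12 h. At 24 h it was 154 and 160.0 CPM against 114 and 107 CPM. The groups did not overlap at either time. In log2 DNMT3A changed by -0.45 at 12 h (SE 0.06, adjusted p = 2.68e-08) and by -0.51 at 24 h (SE 0.06, adjusted p = 9.77e-10), and the difference between them did not pass its own test (-0.06, 95% interval -0.22 to 0.10, adjusted p = 0.724). In IgG libraries DNMT3A was lower at 24 h than at 12 h (log2 fold change -0.19, adjusted p = 0.018 from edgeR). That call was lost in 7 of 16 alternatives. Among these were edgeR without a filter on low counts (adjusted p = 0.0541) and limma on FPKM (adjusted p from 0.163 to 0.227). Without IgG 12 h replicate 1, IgG 12 h replicate 2 or IgG 24 h replicate 1 the value was -0.20, -0.17 and -0.15 and did not pass.

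DNMT3B (ENSG00000088305.19), the other de novo enzyme, lies on chromosome 20 from 32762385 to 32809359. It was at 1365 and 1393 CPM with IgG and 1337 and 1336 CPM with anti-M8nAb at 12 h. At 24 h the values were 1052 and 1101 CPM against 1079 and 976 CPM, and here the groups overlapped. The log2 fold changes were -0.05 (95% interval -0.13 to 0.04, adjusted p = 0.476) and -0.07 (95% interval -0.15 to 0.02, adjusted p = 0.228), which did not pass. Without anti-M8nAb 24 h replicate 1 the value at 24 h was -0.14 and passed (adjusted p = 0.0319), and without replicate 2 it was 0.00 (adjusted p = 0.971). The larger movement was with time. DNMT3B was lower in IgG libraries of 24 h than of 12 h, and its log2 fold change was -0.36 (SE 0.04, adjusted p = 1.55e-07), place 43 of the 20165 genes by p. Both IgG 24 h libraries were below both IgG 12 h libraries.

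DNMT3L (ENSG00000142182.9), on chromosome 21 from 44246339 to 44262216, had 1 count in IgG 12 h replicate 2, 1 count in IgG 24 h replicate 1 and 0 in the other 6 libraries. A count of 0 allows up to 3 counts, or 0.132 to 0.147 CPM in these libraries, for counting error alone. The gene was below the filter and was not tested. In the annotation 13% of its exon sequence overlaps DNMT3L-AS1 on the other strand.

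TET1 (ENSG00000138336.9), on chromosome 10 from 68560337 to 68694487, was at 96.2 and 98.1 CPM with IgG and 83.5 and 74.4 CPM with anti-M8nAb at 12 h. At 24 h it was at 91.4 and 82.6 CPM against 73.7 and 75.1 CPM. The anti-M8nAb libraries lay below the IgG libraries each time, by -0.30 in log2 at 12 h (SE 0.07, adjusted p = 0.000623) and by -0.23 at 24 h (SE 0.07, adjusted p = 0.00699). The call at 12 h did not pass without anti-M8nAb 12 h replicate 2 (-0.21, adjusted p = 0.0604). The call at 24 h did not pass without IgG 24 h replicate 1 (-0.16, adjusted p = 0.104) or without anti-M8nAb 24 h replicate 1 (-0.21, adjusted p = 0.0501).

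TET3 (ENSG00000187605.16), on chromosome 2 from 73984910 to 74108176, turned between the times. It was at 32.9 and 39.0 CPM with IgG and 43.6 and 44.6 CPM with anti-M8nAb at 12 h, and at 32.7 and 31.8 CPM against 30.4 and 24.3 CPM at 24 h. The anti-M8nAb libraries were thus above the IgG libraries at 12 h and below them at 24 h. The log2 fold change was 0.30 at 12 h (SE 0.10, adjusted p = 0.0147) and -0.24 at 24 h (SE 0.10, adjusted p = 0.0506, which did not pass). The responses differed by -0.53 on the log2 scale (SE 0.14, adjusted p = 0.00659). In 6 of 17 alternatives TET3 was not called at 12 h. Among them were edgeR without a filter on low counts (0.29, adjusted p = 0.0911) and limma on FPKM (adjusted p from 0.223 to 0.421). The call at 12 h was lost without anti-M8nAb 12 h replicate 2 (0.28, adjusted p = 0.0614) and without IgG 12 h replicate 1 (0.18, adjusted p = 0.315). The difference between the times did not pass without IgG 12 h replicate 1 (-0.42, adjusted p = 0.0987) or without anti-M8nAb 24 h replicate 2 (-0.38, adjusted p = 0.0965). The value at 24 h passed without anti-M8nAb 24 h replicate 1 (-0.41, adjusted p = 0.00548) and, with the log2 fold change at -0.24 and -0.23, without anti-M8nAb 12 h replicate 1 (adjusted p = 0.0467) or replicate 2 (adjusted p = 0.0467).

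TET2 (ENSG00000168769.14), on chromosome 4 from 105145875 to 105279816, was the least abundant member that was tested. It had 79 and 85 counts in the IgG libraries of 12 h against 98 and 114 with anti-M8nAb, and 96 and 103 against 108 in both libraries at 24 h. The anti-M8nAb libraries lay above the IgG libraries each time without overlap, but the log2 fold changes of 0.45 (95% interval 0.04 to 0.86, adjusted p = 0.0951) and 0.26 (95% interval -0.14 to 0.65, adjusted p = 0.323) did not pass.

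TDG (ENSG00000139372.15), on chromosome 12 from 103965822 to 103988874, was at 201 and 198 CPM with IgG and 184 and 185 CPM with anti-M8nAb at 12 h. At 24 h it was at 172 and 156 CPM against 143 and 145 CPM. The groups did not overlap at either time. The log2 fold change of -0.12 at 12 h did not pass (95% interval -0.23 to -0.01, adjusted p = 0.114), and that of -0.18 at 24 h did (SE 0.06, adjusted p = 0.00829). The call at 24 h was lost without IgG 24 h replicate 1 (-0.12, adjusted p = 0.12) or anti-M8nAb 24 h replicate 1 (-0.17, adjusted p = 0.0558). TDG in IgG libraries went down from 12 h to 24 h (log2 fold change -0.29, adjusted p = 0.000333). The processed pseudogene TDGP1 had 4 to 10 counts per library.

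**Figure D2:**
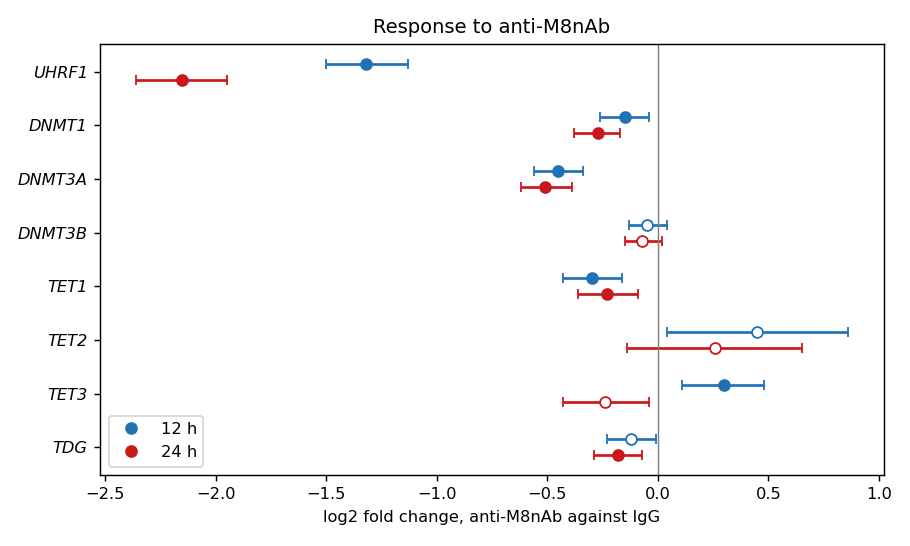
Log2 fold change of anti-M8nAb against IgG (x axis) of 8 members at 12 h (blue) and 24 h (red), where bars span the 95% interval, filled points have an adjusted p under 0.05 and open points do not. UHRF1 lies at -1.32 and -2.15, and the other 7 members lie between -0.51 and 0.45.

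Counted over the 8 members tested, 5 were called at 12 h, where 32.2% of all genes were. Of these 4 were lower (16.4% of all genes) and 1 was higher (15.8%). At 24 h 5 were called, where 42.5% of all genes were, all 5 of them lower (21.3% of all genes). None was higher at 24 h (21.2% of all genes), by edgeR, by DESeq2 or at an unadjusted p under 0.05. Without anti-M8nAb 12 h replicate 2 the log2 fold change at 12 h was -1.32 for UHRF1 (adjusted p = 8.28e-21) and -0.44 for DNMT3A (adjusted p = 6.21e-07), both still called. DNMT3B, TET2 and TDG, which were not called, then had -0.04, 0.35 and -0.12 (adjusted p = 0.625, 0.362 and 0.267). The count at 12 h was 3 without IgG 12 h replicate 1 and 2 without anti-M8nAb 12 h replicate 2, and the count at 24 h was 3 without IgG 24 h replicate 1. The median log2 fold change of the 8 was -0.13 at 12 h and -0.23 at 24 h, against 0.00 over all genes at both times. The response differed between the times in 2 members, UHRF1 and TET3, where 12.3% of all genes did and 6.54% with a lower value at 24 h. With IgG alone, 4 members were lower at 24 h than at 12 h (UHRF1, DNMT3A, DNMT3B and TDG), where 13.7% of all genes were called and 6.64% were lower. That count was 2 without IgG 12 h replicate 1, without IgG 12 h replicate 2 or without IgG 24 h replicate 1.

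Levels of different genes were set side by side on the FPKM scale. The lengths it divides by are close to all annotated exon sequence of a gene, 15379 bases for DNMT1 and 13781 for DNMT3A against 5145 for UHRF1 and 4885 for TDG, so the order depends on these lengths where a gene's transcripts use only part of it. In CPM, TDG was below DNMT1. In the IgG libraries of 12 h the order was DNMT3B (201 and 204 FPKM), TDG (41.7 and 41.0), DNMT1 (16.8 and 17.2), DNMT3A (13.1 and 13.2), UHRF1 (11.9 and 11.0), TET1 (10.1 and 10.3), TET3 (2.57 and 3.04) and TET2 (0.224 and 0.239). No neighbours in that order overlapped. In the IgG libraries of 24 h UHRF1 (8.57 and 10.1 FPKM) and TET1 (9.85 and 8.96 FPKM) overlapped. With anti-M8nAb UHRF1 dropped in the order. At 12 h, at 4.34 and 4.44 FPKM, it lay below TET1 (8.38 and 7.54 FPKM), and at 24 h, at 2.09 and 1.86 FPKM, it overlapped TET3 (2.29 and 1.83 FPKM). DNMT3B made up 85.0 to 88.9% of the summed FPKM of the 4 DNMT genes in every library. TET1 made up 75.8 to 78.4% of the summed FPKM of the 3 TET genes with IgG. With anti-M8nAb its share was 70.3 and 67.2% at 12 h, below every IgG library, and 74.2 and 78.1% at 24 h. The TET3 share was 27.3 and 29.9% in anti-M8nAb libraries of 12 h and 18.7 to 22.7% in the other 6 libraries.

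**Figure D3:**
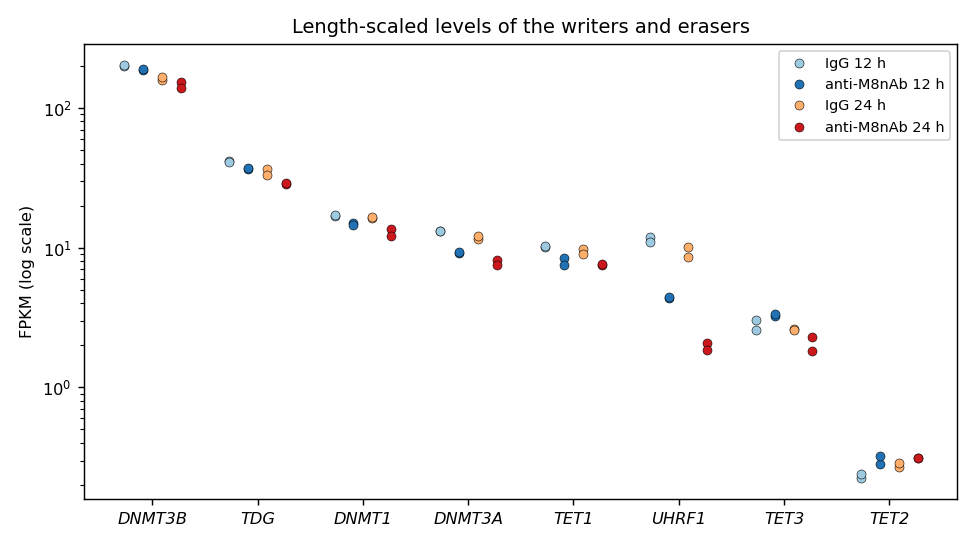
The authors' FPKM (y axis, log scale) of 8 members in each library, with IgG 12 h in light blue, anti-M8nAb 12 h in blue, IgG 24 h in light orange and anti-M8nAb 24 h in red. UHRF1 falls from beside TET1 with IgG to 2.09 and 1.86 FPKM with anti-M8nAb at 24 h, beside TET3.

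Across the 8 libraries the log2 CPM of UHRF1 followed that of DNMT3A (Pearson r = 0.98) and of DNMT1 (r = 0.94) more closely than that of DNMT3B (r = 0.52). DNMT3B was closest to TDG (r = 0.90). These correlations describe 8 libraries of 4 groups that share treatment and time. Among 11165 protein-coding genes with a mean of at least 5 CPM (11166 for TET2), the genes most like UHRF1 were ZHX1 (r = 0.998), DNAJC14 (r = 0.997) and HNRNPF (r = 0.996), and 295 genes had an r over 0.95. Those most like DNMT3A were MMEL1 (r = 0.996), ZW10 (r = 0.992) and CHD4 (r = 0.992). DNMT1 was most like HK2 (r = 0.987), DNMT3B most like SMIM10L1 (r = 0.990), TET1 most like STRBP (r = 0.985), TET2 most like LRP12 (r = 0.969), TET3 most like ZNF407 (r = 0.979) and TDG most like PALS2 (r = 0.996).

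The factors that work with UHRF1 and DNMT1 at replicating DNA moved in both directions. HELLS, a remodeller that opens nucleosomes for maintenance methylation, went from 201 ± 7.59 to 254 ± 6.26 CPM at 12 h (mean ± SD, n = 2) and from 218 and 189.9 to 264 and 289 CPM over the libraries of 24 h. It rose both times, by 0.34 and by 0.44 in log2 (adjusted p = 9.27e-06 and 2.7e-08). CDCA7, which recruits HELLS, went the other way with -0.33 and -0.54 (adjusted p = 0.00021 and 1.92e-08), and its relative CDCA7L had -0.35 at 12 h (adjusted p = 8.38e-06), with 21.4% of its exon sequence overlapping DNAH11 on the other strand. ZBTB24, a zinc finger activator of CDCA7, fell to 22.6 and 19.9 CPM at 24 h from 44.6 and 39.6 CPM, or by 0.99 in log2 (adjusted p = 1.22e-11). All 10 maintenance partners were tested. At 12 h 1 of them was higher and 3 were lower (15.8% and 16.4% of all genes), and by 24 h the counts were 1 and 6 (21.2% and 21.3%). The median log2 fold changes were -0.02 and -0.20. UHRF2, the paralogue of UHRF1, had -0.04 and -0.06 and did not pass (adjusted p = 0.768 and 0.548).

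UHRF1 and DNMT1 are genes of replicating cells, so 24 genes of S phase were set beside them. At 12 h 4 were higher and 4 lower, where 15.8% and 16.4% of all genes were, and the median log2 fold change was 0.01. The lowest was CCNE1, the cyclin of S phase entry, with -0.88 (adjusted p = 2.14e-11), which fell less than UHRF1. For MCM10 the value was -0.36 (adjusted p = 0.000201) and for POLA1 -0.35 (adjusted p = 0.000243). The number higher was 0 when IgG 12 h replicate 1 was left out and 1 without IgG 12 h replicate 2 or without anti-M8nAb 12 h replicate 2, and the 4 lower stayed 4 in number. At 24 h 17 of the 24 were lower and 0 higher, where 21.3% and 21.2% of all genes were. The median was -0.36, the lowest value was -1.20 (E2F2), and no gene had a value above 0. RRM2 and FEN1, which serve nucleotide supply and lagging strand synthesis, had -0.58 and -0.57 at 24 h (adjusted p = 8.68e-12 and 7.52e-11). The DNMT1 values of -0.15 and -0.27 lay within the range of this list, and the UHRF1 values of -1.32 and -2.15 lay below all 24 genes at each time. Whether UHRF1 differs from the list was not tested.

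**Figure D4:**
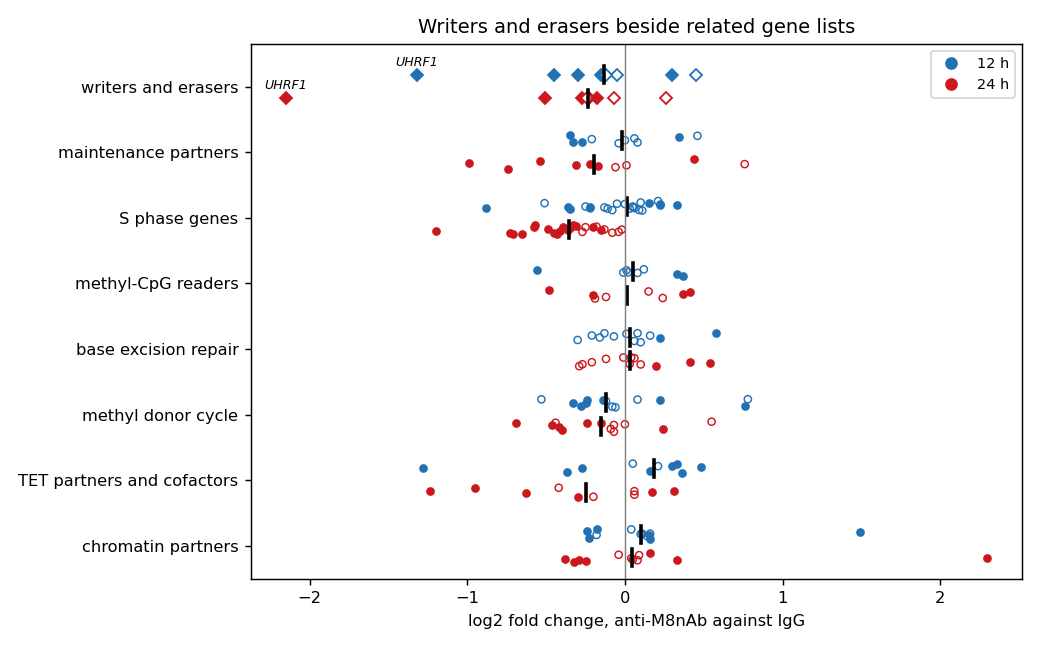
Log2 fold change of anti-M8nAb against IgG (x axis) at 12 h (blue) and 24 h (red) for the 8 members tested (diamonds) and the genes of 7 related lists (circles), where filled symbols have an adjusted p under 0.05, open symbols do not, and black bars mark medians. The S phase genes have medians of 0.01 and -0.36, and UHRF1 lies at -1.32 and -2.15.

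All DNA methyltransferases use the methyl donor S-adenosylmethionine. MAT2A, which makes the donor, was at 404 and 409 CPM with IgG and 315 and 334 CPM with anti-M8nAb at 12 h, and at 315 and 319 CPM against 199 and 193 CPM at 24 h. Its log2 fold changes were -0.33 and -0.69 (adjusted p = 1.1e-06 and 1.84e-15), and GGCX overlaps 12.5% of its exon sequence on the other strand. MTHFD1 and SHMT1 of the folate cycle had -0.40 and -0.46 at 24 h (adjusted p = 1.1e-08 and 5.98e-06). AHCY, which clears the by-product of methylation, rose with 0.22 and 0.24 (adjusted p = 0.000193 and 2.52e-05). Among 13 genes of the cycle the 12 h libraries gave 2 higher and 5 lower (15.8% and 16.4% of all genes), with a median log2 fold change of -0.12. The 24 h libraries gave 1 higher and 6 lower (21.2% and 21.3% of all genes, median -0.15). The 5 lower at 12 h were 1 without IgG 12 h replicate 2 and 2 without anti-M8nAb 12 h replicate 2.

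Base excision repair completes what TET and TDG begin. UNG, a uracil glycosylase, rose from 314 and 317 to 463 and 482 CPM at 12 h and from 294 and 288 to 421 and 423 CPM at 24 h, or by 0.58 and 0.54 in log2 (adjusted p = 1.97e-13 and 1.19e-12). NEIL2 rose by 0.41 at 24 h (adjusted p = 0.0011). LIG3, whose exons overlap RFFL on the other strand by 29.1%, had 0.22 and 0.20 (adjusted p = 0.00487 and 0.0074). Without IgG 12 h replicate 2 the value for LIG3 at 12 h was 0.16, and without IgG 24 h replicate 1 that at 24 h was 0.15, and neither passed. The glycosylase SMUG1 had -0.21 at 12 h and did not pass (adjusted p = 0.127). Among 12 genes of base excision repair 2 rose at 12 h (15.8% of all genes) and 3 at 24 h (21.2% of all genes). By edgeR or by DESeq2 0 fell, where edgeR called 16.4% and 21.3% of all genes lower. The median was 0.03 each time, and no negative value had an unadjusted p under 0.05. PARP1 and XRCC1, which serve the later steps, did not pass at either time. A long non-coding RNA overlaps 17.6% of the XRCC1 exon sequence on the other strand.

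Among partners and cofactors of the TET enzymes, D2HGDH, which removes the TET inhibitor D-2-hydroxyglutarate, fell from 7.56 and 8.97 to 3.44 and 3.38 CPM at 12 h and from 7.55 and 8.90 to 3.36 and 3.60 CPM at 24 h. In log2 it changed by -1.28 and -1.24 (adjusted p = 1.15e-06 and 1.1e-06), and a long non-coding RNA overlaps 11.6% of its exons on the other strand. PRDM14, a pluripotency factor that restrains DNMT3B, turned as TET3 did, with 0.36 at 12 h (adjusted p = 0.000782) and -0.95 at 24 h (adjusted p = 6.2e-12). SALL4, a zinc finger partner of TETs, had 0.48 at 12 h (adjusted p = 5.37e-10). OGT, the glycosyltransferase that binds TETs, had 0.33 at 12 h (adjusted p = 8.49e-06). IDH2, a source of the TET cosubstrate, had -0.63 at 24 h (adjusted p = 1.41e-08). IDH1, the other source listed, was at 526 to 635 CPM over the libraries against 36.2 to 58.4 CPM for IDH2. It rose by 0.16 at 12 h and 0.17 at 24 h (adjusted p = 0.00461 and 0.00194). The 10 genes gave 5 higher and 3 lower at 12 h (15.8% and 16.4% of all genes, median 0.19). By 24 h 2 were higher against 4 lower (21.2% and 21.3% of all genes, median -0.25).

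Members of the protein families that read methylated CpG sites were listed as readers, whether or not each protein binds such sites itself. MBD3, a subunit of the NuRD complex, rose at both times (log2 fold changes 0.37 and 0.41, adjusted p = 2.08e-05 and 2.54e-06), and ZBTB4 fell (-0.56 and -0.48, adjusted p = 0.000903 and 0.00274). MBD1 had 0.33 at 12 h (adjusted p = 0.000473) and MBD2 0.37 at 24 h (adjusted p = 0.0134). The 8 genes listed as readers gave 2 higher and 1 lower at 12 h (15.8% and 16.4% of all genes, median 0.05). By 24 h they gave 2 of each (21.2% and 21.3% of all genes, median 0.02). The counts at 24 h were 1 and 1 without anti-M8nAb 24 h replicate 2, where MBD2 had 0.14 and did not pass, and MBD2 had 0.22 and did not pass without IgG 24 h replicate 1. ZBTB4 had -0.27 and did not pass at 24 h without anti-M8nAb 24 h replicate 1. The 12 chromatin genes that guide the writers gave 3 of each direction at 12 h (15.8% and 16.4% of all genes, median 0.11). By 24 h 3 were higher against 4 lower (21.2% and 21.3% of all genes, median 0.05). The counts at 12 h were 1 and 2 without IgG 12 h replicate 1 and 1 and 0 without anti-M8nAb 12 h replicate 2. TRIM28, the corepressor that brings heterochromatin to silenced repeats, rose by 0.33 at 24 h (adjusted p = 7.1e-08), and ZFP57, a zinc finger that keeps imprints methylated, rose from 0.691 and 0.552 to 1.91 and 1.59 CPM and from 0.489 and 0.573 to 2.39 and 2.87 CPM, with log2 fold changes of 1.49 and 2.30 (adjusted p = 0.00332 and 4.74e-06). The methyltransferase NSD2, whose mark guides DNMT3A, had -0.23 and -0.29 (adjusted p = 0.00231 and 0.000103), and EHMT1 had -0.24 at 12 h (adjusted p = 0.00252). Neither passed at 12 h without anti-M8nAb 12 h replicate 2 (-0.12 and -0.18).

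Germline genes are a class that promoter methylation keeps silent in somatic cells. Of 14 listed, 5 passed the filter and 9 did not. TEX15, a gene of the male germline that is needed for silencing of transposons, fell from 16.4 and 16.5 to 7.02 and 6.99 CPM at 12 h and from 17.8 and 15.5 to 3.65 and 2.73 CPM at 24 h (log2 fold change -1.23, then -2.38, adjusted p = 5.34e-09 and 2.87e-16). TEX14 had 0.99 at 12 h (adjusted p = 0.0115), which did not pass without IgG 12 h replicate 2 (0.62). DAZL had -0.67 at 12 h and did not pass (adjusted p = 0.131), though it did without anti-M8nAb 12 h replicate 1 (-1.29). The 5 gave 1 call in each direction at 12 h and 0 higher with 1 lower by 24 h (also 0 and 1 by DESeq2), where the unadjusted p of SYCP3 was 0.0237 and the call count was 2 without anti-M8nAb 24 h replicate 2. Over all genes edgeR called 15.8% higher and 16.4% lower at 12 h, and 21.2% and 21.3% at 24 h. SYCP3 had 0.49 and SYCP1 -1.42 at 24 h, and neither passed (adjusted p = 0.0546 and 0.129). CHPT1 overlaps 14.8% of the SYCP3 exon sequence on the other strand. Group means of the 9 below the filter were at most 0.292 CPM (STK31), and those of DDX4, MAEL, TEX101, ASZ1 and HORMAD1 at most 0.195 CPM. The DNA methylation of these genes was not measured here.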

How the data were processed

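RNA of BG01 hESCs was sequenced in 8 libraries. Before deposit the authors used Trimmomatic for trimming, STAR in 2 passes for alignment (GRCh38.p14), Picard to take out duplicates and HTSeq to count over the genes of Ensembl. The deposited tables hold these counts per gene and the FPKM that the authors computed from them with RNAnorm. Each table has 4 further columns that were not used, and 1005 lines of the count table without a gene name, the largest of which holds 49.3 to 50.2% of a library's counts, were left out. All 62086 identifiers were paired with a symbol in GENCODE v44.

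Counts kept by edgeR's filter within groups (20165 genes) were TMM-scaled and the model was fitted in edgeR 4.0.16 (R 4.3.3), 1 mean per group and 8 libraries in the fit. The tests were anti-M8nAb against IgG at each time, the difference between these responses, and IgG at 24 h against 12 h, all two-sided quasi-likelihood F tests adjusted over all genes tested. SE is the log2 fold change divided by the root of F, and CPM are given as mean or per library with n = 2. The common biological coefficient of variation was 5.53%. The spread between replicates was 2.28 to 4.50 times what counting error gives. The study also asked for a 2-fold change, which is given beside the calls. Alternatives were DESeq2 1.42.0, DESeq2's size factors, 2 other filters, limma 3.58.1 on log2(FPKM + 1) or log2(FPKM + 0.1), each time alone, a term for the replicate number and each library left out.

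Genes named are the 9 members, the 3 genes of lowest adjusted p per related list and time, the genes most alike in level over the libraries, and markers. A few others (UHRF2, PARP1, XRCC1, IDH1 and the germline genes below the filter) were named after their values were seen. A pair of genes that this rule names are not reported here. The members and lists were chosen with earlier results of these data known. Strand was not stated for the counting. Exon overlap with a gene on the other strand is therefore given where it is 10% or more, for members, list genes and markers. It was not looked up for the genes most alike in level.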

Additional observations from a re-analysis of the deposited data

Results flagged for a closer look

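The response of UHRF1 to anti-M8nAb was deeper at 24 h than at 12 h, by -0.84 on the log2 scale (edgeR adjusted p = 3.59e-05), and both anti-M8nAb libraries lay below both IgG libraries at each time. It passed in every alternative but limma on log2(FPKM + 1) over all genes, with adjusted p from 2.45e-05 to 0.112.

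The response of TET3 differed between the times by -0.53 on the log2 scale (edgeR adjusted p = 0.00659), from 0.30 at 12 h to -0.24 at 24 h. Over the alternatives the difference ran from -0.70 to -0.38 with adjusted p from 0.00083 to 0.278, and 6 of 16 did not pass.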

How the results depend on the processing

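UHRF1 and DNMT3A at 12 h and 24 h, and DNMT1 at 24 h, kept their direction and their call in all 17 alternatives, with UHRF1 from -1.36 to -1.20 and from -2.27 to -1.79 on the log2 scale. The members called were 5, 5, 2 and 4 (at 12 h, at 24 h, for the difference between the times and for IgG with time). A 2-fold threshold left 1, 1, 0 and 0 of them, and 1284, 1935, 543 and 267 of the 6496, 8566, 2486 and 2753 genes called. Without a filter on low counts the members were 3 at 12 h, 1 for the difference and 2 for IgG with time, with 1228 and 1416 genes for the last pair. With limma on log2(FPKM + 1) over all genes there were 3036, 5697, 454 and 246 genes and 3, 5, 0 and 0 members. With a mean FPKM of at least 0.5 there were 919 and 766 genes for the difference and for IgG with time, or 896 and 683 with a pseudocount of 0.1, and 1 and 2 members, or 1 and 1. FPKM carry no TMM scaling, and over all genes limma called 1091 higher against 1945 lower (12 h) and 2109 higher against 3588 lower (24 h), where edgeR gave 3196 and 3300, then 4270 and 4296, and with a mean FPKM of at least 0.5 it called 529 higher and 237 lower for IgG with time, against 1414 and 1339.

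With 1 library left out, the lone library of a group is assumed to vary like the others. The genes called then ran from 4241 to 6644 at 12 h, from 6947 to 8816 at 24 h, from 1452 to 2197 for the difference and from 928 to 2929 for IgG with time, and the members from 2 to 5, from 3 to 6, from 1 to 2 and from 2 to 4. The lowest gene counts were without IgG 12 h replicate 1 (4241 and 1452) and without IgG 12 h replicate 2 (928). DNMT3B at 24 h ran from -0.14 to 0.00, reaching 0.00 without anti-M8nAb 24 h replicate 2. Its difference between the times ran from -0.09 to 0.05, and that of TET1 from -0.01 to 0.16. Neither difference passed in any alternative.

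A term for the replicate number gave 6421, 8496, 2434 and 2688 genes and 5, 5, 2 and 4 members. Same-numbered libraries did not deviate together (r of the replicate differences from -0.04 to 0.03 between groups), and with the replicate block no member and no other named gene changed its call. With 2 libraries a group and a spread above counting error, the number of libraries, not their depth, limits these values. TET2, with 79 to 114 counts, and DNMT3L, with at most 1, are also limited by depth.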
